A study of Mus musculus with 6 samples.

Results

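Autophagy is the route by which a cell wraps cytoplasm, aggregates or organelles in a double membrane and delivers them to lysosomes. A kinase complex around ULK1 starts it, a lipid kinase complex and lipid carriers build the membrane, and a conjugation system attaches proteins of the ATG8 family (LC3 and GABARAP) to that membrane. Receptors then tie cargo to ATG8, and mitophagy is the branch that removes mitochondria, through the kinase PINK1 or through receptors in the mitochondrial outer membrane. Skeletal muscle, rich in mitochondria and protein, uses autophagy heavily, above all in fasting.

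The genes described here are the rows of the FPKM table (a level scaled for transcript length and sequenced fragments) whose symbol is Atg followed by a digit, or is among 21 further symbols of autophagy and mitophagy, with a mean of at least 1 FPKM over the 6 libraries. They number 38 of the 11607 genes that reached that minimum and of the 23314 rows in all. Of 39 matching rows, Atg9b fell outside the minimum, at a mean of 0.0589 FPKM, and the lowest gene inside it, Atg16l2, had a mean of 1.91 FPKM. Of the 21 symbols, 20 had a row, and Map1lc3b (LC3B) was not analysed here. The Atg symbols gave 18 of the 38 genes, among them Atg4a-ps, whose symbol marks it as a pseudogene of Atg4a and which the GENCODE M21 annotation places on chromosome 3 as protein coding.

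RNA was taken from the quadriceps, a knee extensor of the thigh, in mice aged 2 months. The control group, MyoCre, has the genotype Myogenin-Cre/+, and the group K15SKO has Myogenin-Cre/+ with floxed Klf15 on both chromosomes (K15F/F), so both groups carry the Cre. Myogenin is switched on as muscle cells differentiate, so the Cre acts in muscle cells and not in the other cells of the tissue. Each group has 3 libraries, numbered 1 to 3, although the design text gives n = 4, and the labels do not say that they came from separate animals. The p-values here then reflect only how much these samples vary, which may be technical.

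Klf15, the targeted transcription factor, had values of 35.2, 28.4 and 30.5 FPKM in the 3 MyoCre libraries and of 2.22, 21.7 and 5.32 FPKM in the 3 K15SKO libraries. The library labelled K15SKO 2 thus showed a level not far below the controls. Which cells this Klf15 RNA came from was not tested. The sum of FPKM per library ran from 396375 to 466756, and the depth relative to MyoCre 1, read from the steps between low values, from 0.78 to 1.57. All 10 skeletal muscle markers (such as Mylpf, Actn3 and Ryr1) were present in every library, with sums of 45555 to 53765 FPKM in MyoCre and of 34951, 33949 and 57045 FPKM in K15SKO 1 to 3. The 12 liver markers summed to 34.7 to 82.5 FPKM in MyoCre but to 6079 FPKM in K15SKO 2, against 80.6 and 21.2 FPKM in K15SKO 1 and 3. Even so, 10 of the 12 were higher in every K15SKO library than in every MyoCre library. Alb, for example, stood at 21.1 and 4.36 FPKM in K15SKO 1 and 3 against 0.298 to 1.13 FPKM in MyoCre. Hp and Cyp2e1 were lower in K15SKO 1 and 3. The 11 macrophage markers summed to 44.4 to 53.6 FPKM in MyoCre and to 344, 193 and 40.9 FPKM in K15SKO 1 to 3, and the 7 markers of regenerating muscle to 13.7 to 24.0 FPKM and to 83.3, 69.0 and 21.3 FPKM. Of the 7 regeneration markers, 6 were higher in every K15SKO library, K15SKO 3 included, than in every MyoCre library. Chrna1, for example, stood at 4.27 FPKM in K15SKO 3 against 2.25 to 2.85 FPKM in MyoCre. Myod1, at 17.7 FPKM in MyoCre 1, overlapped. The 8 slow fibre markers summed to 32.9 to 269 FPKM in MyoCre and to 640, 154 and 1017 FPKM in K15SKO 1 to 3. The 9 adipocyte markers were all lower in K15SKO, with sums of 413 to 1070 FPKM in MyoCre and 119 to 236 FPKM in K15SKO. The 6 erythroid (red cell) markers summed to 95.7 to 598 FPKM in MyoCre and to 125, 75.4 and 467 FPKM in K15SKO 1 to 3. K15SKO 1 and 2 therefore stood apart from K15SKO 3 in the sums of muscle, macrophage and regeneration markers. Each result on the autophagy genes is given with and without K15SKO 3 where that changes it.

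The promoters of 3 genes that the results turn on are shown first: Ulk1 and Ulk2, the kinases of initiation, and Pink1, the mitophagy kinase, the kinase genes of the list with the most negative fitted differences, none of which passed the test with all libraries. Each is the 250 bases before the transcription start that RefSeq gives on GRCm38.p6, written 5′ to 3′ on the gene's own strand. GENCODE M21 starts the gene a little earlier for Ulk1 and Pink1, so that 16 and 11 bases of those stretches, and 0 of that of Ulk2, lie inside its gene. Capitals mark the letters CCCCGCCC (a GC box) and CCACACCC (a CACCC box), types of sequence that the Klf family of zinc finger proteins is known to bind.

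Ulk1 (chr5:110810082-110810331, minus strand): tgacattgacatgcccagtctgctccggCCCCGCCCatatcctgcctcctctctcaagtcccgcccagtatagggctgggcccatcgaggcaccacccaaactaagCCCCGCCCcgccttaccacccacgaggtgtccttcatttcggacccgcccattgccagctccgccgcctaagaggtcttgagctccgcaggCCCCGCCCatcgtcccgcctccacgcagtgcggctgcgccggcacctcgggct
Ulk2 (chr11:61855093-61855342, minus strand): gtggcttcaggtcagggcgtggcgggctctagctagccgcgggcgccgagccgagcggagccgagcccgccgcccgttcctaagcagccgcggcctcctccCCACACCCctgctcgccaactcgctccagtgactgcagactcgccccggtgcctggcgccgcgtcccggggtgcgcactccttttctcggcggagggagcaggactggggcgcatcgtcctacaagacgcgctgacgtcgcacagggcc
Pink1 (chr4:138326297-138326546, minus strand): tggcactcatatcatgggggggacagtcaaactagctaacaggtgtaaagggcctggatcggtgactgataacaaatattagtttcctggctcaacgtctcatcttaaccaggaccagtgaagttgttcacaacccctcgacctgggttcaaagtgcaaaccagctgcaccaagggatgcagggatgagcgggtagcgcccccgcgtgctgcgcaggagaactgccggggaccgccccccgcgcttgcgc

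The Ulk1 stretch held 3 GC boxes, which begin 222, 144 and 53 bases before the start, and the Ulk2 stretch held 1 CACCC box, which begins 149 bases before it. The Pink1 stretch held neither, and its GC content was 57.2% against 67.2% for Ulk1 and 72.8% for Ulk2. RefSeq windows from 250 bases before to 50 after the start were found for 30 of the 38 genes, and each motif was searched on both strands of all windows. The GC box was in a window of 13 of the 30 and of 19.6% of all genes with a window. The CACCC box was in 2 of the 30 (Atg4d and Ulk2) and in 4.09% of all genes. For the letters CACGTG, the core of the sites of TFEB and other E-box factors, the counts were 5 of 30 (Atg14, Atg3, Atg5, Atg7 and Bnip3) and 8.09% of all genes. Its longer form TCACGTGA, which contains it, was in Atg3 alone and in 1.12% of all genes, and GTAAACA, a forkhead (FOXO) site, in 0 of 30 and 4.05%. A match describes the letters of the window and is not a measured binding site.

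The comparison of K15SKO with MyoCre asks how loss of the transcription factor Klf15 in muscle goes with transcript levels in the quadriceps. No autophagy gene passed the test across all genes: limma on log2(FPKM + 1), with Benjamini-Hochberg adjustment over the 11607 genes and a threshold of 0.05, called 0 of the 38, and 6 genes (0.0517%) in all. At an unadjusted p under 0.05, 6 of the 38 were lower in K15SKO, against 8.12% of all genes, and 1 was higher, against 8.43%. In 7 of the 38 (Ulk1, Atg13, Atg12, Atg16l1, Atg4c, Fundc1 and Bnip3l) every K15SKO library was below every MyoCre library, against 11.3% of all genes. In 3 of the 38 (Gabarap, Map1lc3a and Nbr1) every K15SKO library was above, against 13.4%. The fitted difference was below 0 for 27 of the 38, or 71.1%, against 52.0% of all genes, and the median difference was −0.12 on the log2(FPKM + 1) scale, against −0.02 for all genes.

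**Figure D1:**
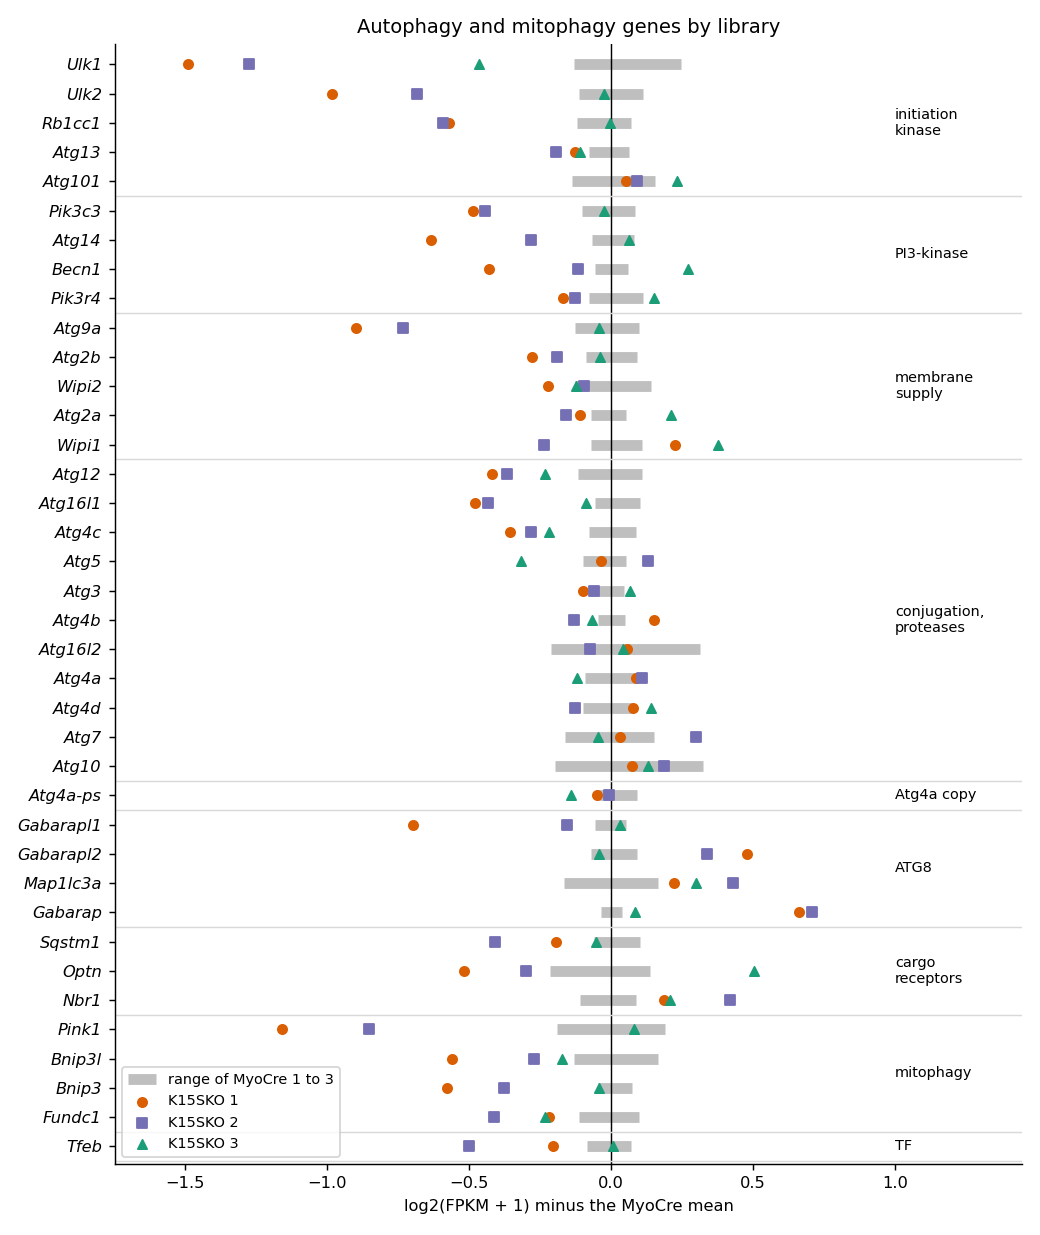
Log2(FPKM + 1) minus the MyoCre mean (horizontal axis) of each of the 38 genes (rows, grouped by role) in K15SKO 1 to 3 (points), with the range of the 3 MyoCre libraries as a grey bar. K15SKO 1 and 2 lie furthest left for Ulk1, Ulk2, Atg9a and Pink1, with K15SKO 3 nearer to the grey bar or inside it, and Gabarap and Map1lc3a lie right of it in all 3.

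The 3 knockout libraries were not alike. In K15SKO 1, 24 of the 38 genes were below the range of the 3 MyoCre libraries and 7 above it. The counts were 25 and 7 in K15SKO 2, and 11 and 11 in K15SKO 3. Of all 11607 genes, 5011 were below and 4323 above in K15SKO 1, 5086 and 3873 in K15SKO 2, and 2936 and 4186 in K15SKO 3. The median over the 38 genes, relative to the MyoCre mean on the log2(FPKM + 1) scale, was −0.20, −0.18 and −0.02 in K15SKO 1 to 3, whereas over all genes it was −0.04, −0.06 and 0.03. In 11 of the 38, K15SKO 1 and 2 were both below the MyoCre range while K15SKO 3 was within it (13.6% of all genes), and the reverse pattern occurred in 1, Gabarapl2 (8.34% of all genes). K15SKO 3 was the knockout library nearest to the MyoCre mean in 21 of the 38, or 55.3%, close to the 58.7% over all genes. Without K15SKO 3, limma called 9 of the 38 lower and 2 higher, beside 12.8% and 10.8% of all genes, and 2743 genes in all, where the fit assumes that the remaining pair varies like the controls. Without K15SKO 2, the library with most Klf15 and most liver RNA, 0 of the 38 were called. Among the 3 knockout libraries, Klf15 was lowest in K15SKO 1 and highest in K15SKO 2. How its level in bulk RNA relates to the autophagy genes was not tested.

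**Figure D2:**
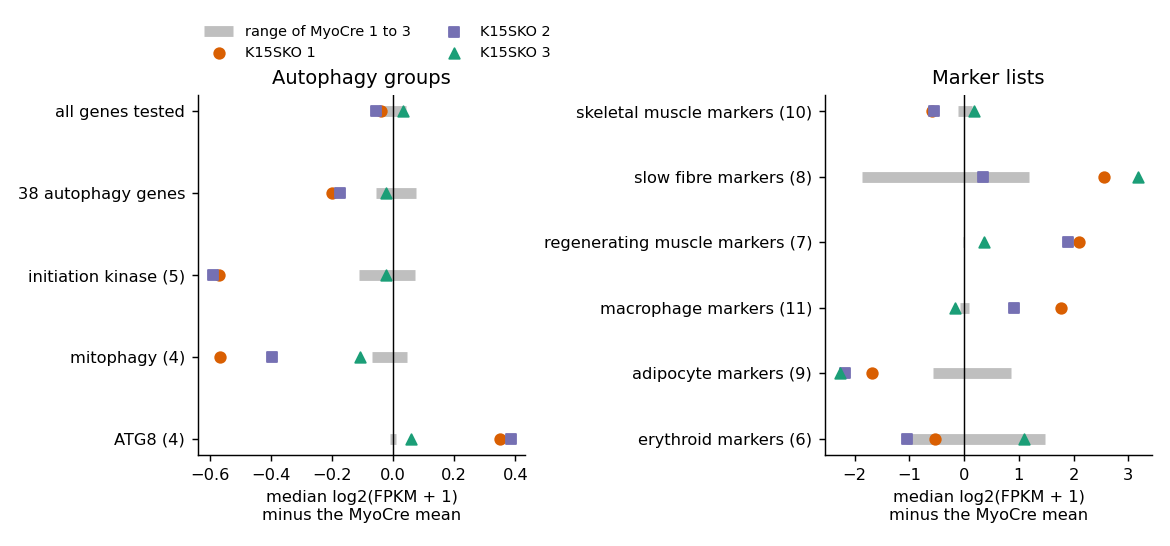
Median log2(FPKM + 1) difference from the MyoCre mean in K15SKO 1 to 3 (points) and the range over MyoCre 1 to 3 (grey bars), for all 11607 genes, the 38 autophagy genes and 3 of their role groups (left) and for marker lists of muscle and other cells (right; number of genes in brackets). The autophagy genes lie at −0.20 and −0.18 in K15SKO 1 and 2 and at −0.02 in K15SKO 3. The medians of K15SKO 1 and 2 lie away from MyoCre for skeletal muscle, regenerating muscle and macrophage markers. For regenerating muscle markers the median of K15SKO 3, at 0.36, also lies above the MyoCre range.

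The initiation complex held Ulk1, the gene with the largest difference of the 38. Ulk1 is the kinase that AMPK activates and mTORC1 restrains (GRCm38 chr5:110784488-110810097, minus strand), and it stood at 32.7, 33.1 and 42.9 FPKM in the MyoCre libraries and at 12.2, 14.3 and 25.8 FPKM in the K15SKO libraries. The groups did not overlap, and the highest K15SKO value was that of K15SKO 3. The means were 36.3 ± 5.74 and 17.4 ± 7.33 FPKM (SD, n = 3 each), so K15SKO was at 48.0% of MyoCre. The log2 difference of −1.08 (SE 0.28) did not pass after adjustment (limma adjusted p = 0.269), and it was −1.38 without K15SKO 3 (adjusted p = 0.00899).

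Ulk2, its close relative with overlapping function (chr11:61775649-61855073, minus strand), stood at 35.2, 38.1 and 41.3 FPKM in the MyoCre libraries and at 18.8, 23.3 and 37.5 FPKM in the K15SKO libraries. K15SKO 3 was inside the range of the controls and the other knockout libraries were far below it. The log2 difference was −0.56 (SE 0.25, adjusted p = 0.310), and −0.83 without K15SKO 3 (adjusted p = 0.0161). Rb1cc1 (FIP200), the scaffold of the complex, also had K15SKO 3 within the control range, with 18.4, 20.9 and 21.2 FPKM against 13.2, 13.0 and 20.0 FPKM. Its adjusted p was 0.318 with all libraries and 0.0183 without K15SKO 3. The adaptors differed little: Atg13 stood at 15.3, 16.3 and 17.0 FPKM against 14.7, 14.0 and 14.9 FPKM. These values did not overlap, but the log2 difference was only −0.14 (adjusted p = 0.412). Atg101, which stabilises Atg13, was the only initiation gene with a difference above 0, of 0.13 (adjusted p = 0.546).

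The level of Ulk1 relative to Ulk2 was lower in all 3 knockout libraries, including K15SKO 3. The ratio of their FPKM, a comparison per transcript length, was 0.93, 0.87 and 1.04 in MyoCre and 0.65, 0.61 and 0.69 in K15SKO. The groups did not overlap and each was narrow. In MyoCre the pair contributed about equally, with Ulk1 at 46.5% to 50.9% of their sum, and in K15SKO Ulk1 made up 37.9% to 40.7%. This ratio was chosen after its values were seen and is given with no test.

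**Figure D3:**
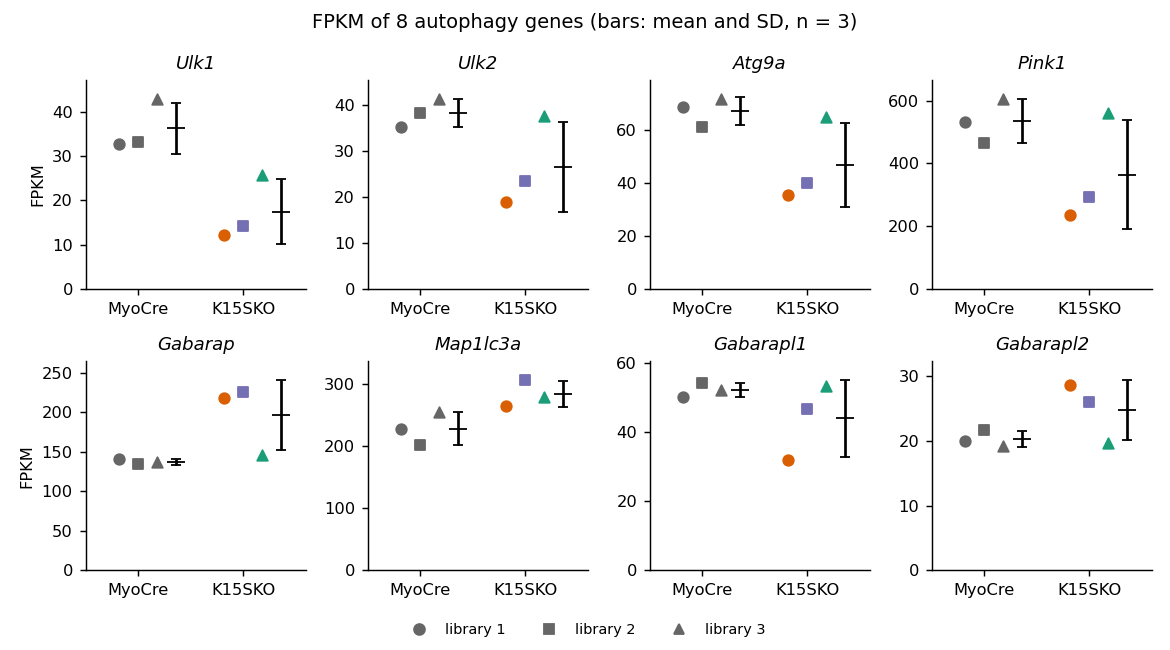
FPKM of 8 autophagy genes in each library (marker shape: library number; black bars: mean and SD, n = 3 per group). Ulk1 and, in the upper direction, Gabarap and Map1lc3a separate the groups, while Ulk2, Atg9a and Pink1 overlap through K15SKO 3 alone.

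The phosphatidylinositol 3-kinase complex makes the lipid PI3P on the growing membrane. Its catalytic subunit Pik3c3 (VPS34) stood at 6.31, 6.97 and 7.32 FPKM in the MyoCre libraries and at 4.60, 4.78 and 6.73 FPKM in the K15SKO libraries. Again K15SKO 3 fell inside the control range and the other pair below it. The log2 difference was −0.32 (adjusted p = 0.319), and without K15SKO 3 the adjusted p was 0.0273. Atg14, which directs the complex to autophagy, stood at 3.95, 3.77 and 4.29 FPKM against 2.21, 3.11 and 4.22 FPKM. Its log2 difference of −0.28 (adjusted p = 0.422) was −0.11 without K15SKO 1 and −0.46 without K15SKO 3. Becn1, the core regulator, differed by −0.09 (adjusted p = 0.777), and Pik3r4, the regulatory subunit, by −0.05 (adjusted p = 0.834). All 4 differences were below 0 and 0 of the 4 genes separated the groups. For Becn1, 36.8% of the 50-base stretches of its transcripts also occur in other genes, so its reads are partly uncertain.

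Among genes that supply membrane or read PI3P, Atg9a differed most. Atg9a, the lipid scramblase whose vesicles seed the new membrane, stood at 68.4, 61.1 and 71.6 FPKM in the MyoCre libraries and at 35.5, 39.9 and 64.9 FPKM in the K15SKO libraries. K15SKO 3 overlapped the controls and the other pair was far below. The log2 difference was −0.56 (SE 0.23, adjusted p = 0.302), and the adjusted p was 0.0124 without K15SKO 3. Another annotated gene, Gm29253, overlaps Atg9a and holds 29.7% of the 50-base stretches of its transcripts, so the split of reads between them is uncertain. The lipid transfer proteins Atg2a and Atg2b differed by −0.02 and −0.17, and the PI3P readers Wipi1 and Wipi2 by 0.12 and −0.15 (adjusted p from 0.424 to 0.940 for the 4).

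The 11 genes of the conjugation system held 3 whose groups did not overlap, all lower in K15SKO, and 8 whose groups overlapped, beside 11.3% of all genes lower and 13.4% higher with no overlap. Atg12, the ubiquitin-like protein joined to Atg5, stood at 17.0, 18.6 and 20.0 FPKM in the MyoCre libraries and at 13.6, 14.1 and 15.6 FPKM in the K15SKO libraries. Every knockout value was below every control value, by a log2 difference of −0.34 (SE 0.11, adjusted p = 0.272). Atg16l1, which brings the Atg12 conjugate to the membrane, stood at 9.09, 9.17 and 10.3 FPKM against 6.52, 6.78 and 8.88 FPKM. The groups were separate but K15SKO 3 lay close to the controls (log2 difference −0.33, SE 0.13, adjusted p = 0.294). Atg4c, a protease that processes ATG8 proteins, stood at 3.87, 4.22 and 3.65 FPKM against 2.83, 3.04 and 3.21 FPKM. Here too the groups were separate, with all 3 knockout values lower (log2 difference −0.29, SE 0.10, adjusted p = 0.280). Without K15SKO 3 the adjusted p was 0.0426 for Atg12, 0.0261 for Atg16l1 and 0.0707 for Atg4c.

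The other conjugation genes were the E1-like enzyme Atg7, the E2-like enzymes Atg3 and Atg10, the Atg12 partner Atg5, the proteases Atg4a, Atg4b and Atg4d, and Atg16l2, a relative of Atg16l1. Their log2 differences ran from −0.07 to 0.13, with adjusted p from 0.632 to 0.979. The row Atg4a-ps differed by −0.07 (adjusted p = 0.687). Of the 50-base stretches of Atg4a, 51.2% occur in other genes, and of those of Atg4a-ps 72.2%, so reads could be split between the pair and both levels are uncertain.

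The ATG8 genes, which encode the small proteins attached to the membrane, had differences above 0 for 3 of 4, whereas 4 of 5 initiation genes were below 0. Gabarap (chromosome 11) stood at 141, 134 and 137 FPKM in the MyoCre libraries and at 219, 226 and 146 FPKM in the K15SKO libraries. The controls lay within a few FPKM of each other, K15SKO 3 just above them, and the other pair far above. Means were 138 ± 3.61 and 197 ± 44.1 FPKM (SD, n = 3 each), a log2 difference of 0.49 (SE 0.19, limma adjusted p = 0.290), and of 0.69 without K15SKO 3 (adjusted p = 0.00894).

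Map1lc3a (LC3A), the most abundant of the 4 on the per-length FPKM scale, stood at 227, 202 and 255 FPKM in the MyoCre libraries and at 265, 306 and 279 FPKM in the K15SKO libraries. All knockout libraries were higher, with K15SKO 3 between the other two. The log2 difference was 0.32 (SE 0.13, adjusted p = 0.305), and its adjusted p without K15SKO 3 was 0.123. Gabarapl2 (GATE-16) stood at 20.0, 21.7 and 19.2 FPKM against 28.7, 25.9 and 19.7 FPKM. K15SKO 3 matched the controls and the other pair was higher, with an adjusted p of 0.395 for all libraries and 0.0367 without K15SKO 3.

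Gabarapl1 (GEC1), a FOXO target in muscle, ran the other way at 50.1, 54.2 and 52.2 FPKM against 31.8, 46.7 and 53.3 FPKM. Only K15SKO 1 was far below the controls, and K15SKO 3 was at their level (log2 difference −0.27, adjusted p = 0.452). The difference was −0.06 without K15SKO 1, and 23.1% of the stretches of Gabarapl1 also occur in 1700101I11Rik, so its reads are partly uncertain. As a share of the summed FPKM of the 4 genes, Gabarapl1 made up 11.4%, 13.1% and 11.2% in MyoCre and 5.84%, 7.73% and 10.7% in K15SKO. Its share was thus lower in every knockout library, by little in K15SKO 3. The share of Gabarap was 29.6% to 32.5% in MyoCre and 40.2%, 37.3% and 29.3% in K15SKO, higher in K15SKO 1 and 2 only. The summed level was 438, 413 and 464 FPKM in MyoCre and 544, 604 and 498 FPKM in K15SKO. In FPKM, all 3 knockout libraries thus held more ATG8 transcript in total among these 4 genes, which leave out Map1lc3b. Relative to the skeletal muscle markers, as given below, each of the 4 genes overlapped between the groups.

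**Figure D4:**
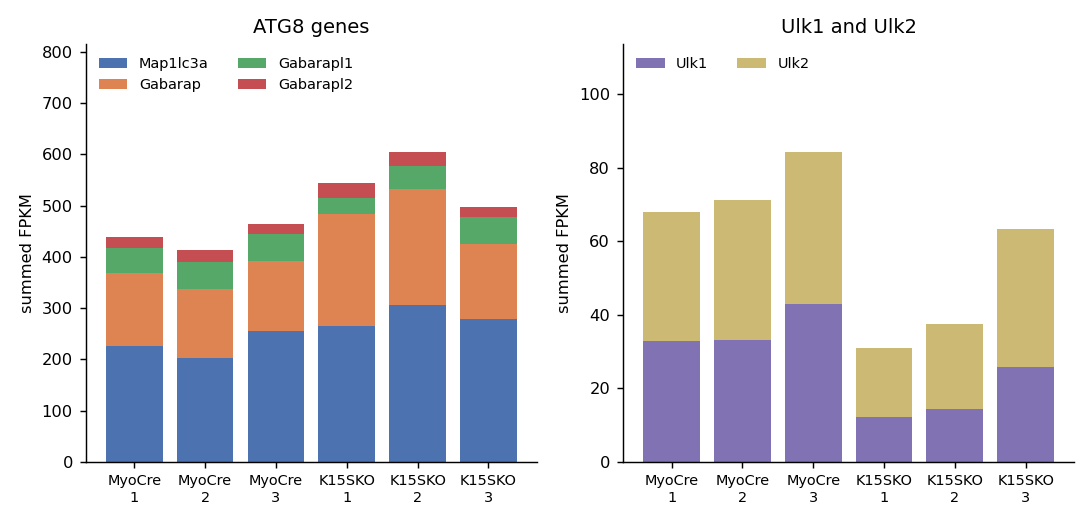
Stacked bars of FPKM in each of the 6 libraries for the 4 ATG8 genes (left) and for Ulk1 and Ulk2 (right), with 1 colour per gene. The ATG8 sum is higher in every K15SKO library and the Ulk sum lower. Gabarapl1 takes 11.2% to 13.1% of the ATG8 sum in MyoCre and 5.84% to 10.7% in K15SKO, and Ulk1 takes 46.5% to 50.9% of the Ulk pair in MyoCre and 37.9% to 40.7% in K15SKO.

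Of the cargo receptors, which hold ubiquitinated material and ATG8 together, Nbr1 separated the groups. Nbr1 stood at 22.2, 24.4 and 25.6 FPKM in the MyoCre libraries and at 27.5, 32.5 and 27.9 FPKM in the K15SKO libraries. All knockout values were higher, by a log2 difference of 0.27 (SE 0.11, adjusted p = 0.303). Sqstm1 (p62), the best known receptor and a protein that autophagy itself consumes, stood at 378, 383 and 424 FPKM against 345, 297 and 381 FPKM. K15SKO 1 and 2 were below the controls and K15SKO 3 within them (adjusted p = 0.412). Optn (optineurin), a receptor in mitophagy, ranged from 31.0 to 39.9 FPKM in MyoCre and from 25.0 to 51.7 FPKM in K15SKO (adjusted p = 0.835). Nbr1 and Sqstm1 thus differed in opposite directions, neither past the threshold.

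All 4 mitophagy genes had differences below 0. Fundc1, a receptor of the mitochondrial outer membrane active in low oxygen, stood at 21.3, 23.4 and 24.8 FPKM in the MyoCre libraries and at 19.7, 17.1 and 19.5 FPKM in the K15SKO libraries. Every knockout value was lower, K15SKO 3 included (log2 difference −0.29, SE 0.11, adjusted p = 0.288). Bnip3l (NIX), the receptor that clears mitochondria from maturing red cells, stood at 18.4, 22.7 and 19.7 FPKM against 13.4, 16.5 and 17.8 FPKM. The groups were again separate (log2 difference −0.34, adjusted p = 0.303), although 20.8% of its stretches are shared with other genes, chiefly Bnip3l-ps. Its relative Bnip3 stood at 146, 156 and 144 FPKM against 99.2, 114 and 144 FPKM. K15SKO 3 met the lowest control and the other pair was lower (adjusted p = 0.328, and 0.0275 without K15SKO 3). For Bnip3, 47.2% of stretches are shared with other genes.

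Pink1, the kinase that marks damaged mitochondria for the ubiquitin ligase Parkin, was the most abundant of the 38 genes by mean FPKM. It stood at 531, 465 and 606 FPKM in the MyoCre libraries and at 237, 294 and 562 FPKM in the K15SKO libraries. K15SKO 3 lay among the controls while the other pair was far lower, so the mean of 364 ± 174 FPKM had a wide error beside 534 ± 70.4 FPKM (SD, n = 3 each). The log2 difference was −0.64 (SE 0.32, adjusted p = 0.342), and −1.01 without K15SKO 3 (adjusted p = 0.0161). Tfeb, the transcription factor that drives lysosomal and autophagy genes, stood at 36.9, 34.4 and 38.4 FPKM against 31.5, 25.5 and 36.7 FPKM. Its groups overlapped through K15SKO 3 (log2 difference −0.23, adjusted p = 0.417).

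Several of these genes were also low relative to muscle transcripts as a whole. Fewer cells of a type and less RNA per cell cannot be told apart in bulk tissue, and the summed muscle markers were themselves lower in K15SKO 1 and 2. Of the 10, 7 followed that sum, but Des stood at 2376 and 2018 FPKM in K15SKO 1 and 2 against 1005 to 1191 FPKM in MyoCre, and Cacng1 at 382 and 336 FPKM against 239 to 266 FPKM. Mb was higher in K15SKO 1 and 3, at 3020 and 4070 FPKM against 1717 to 2017 FPKM, and lower in K15SKO 2. Each gene was therefore also expressed per 1000 FPKM of the geometric mean of the 10 skeletal muscle markers, a scale chosen after the values were seen and given with no test. On it Ulk1 was at 14.3, 15.2 and 16.9 in MyoCre and at 6.55, 7.88 and 9.25 in K15SKO. K15SKO 3, whose muscle markers were the highest of the 6 libraries, was nearer to the other knockout libraries on this scale than in FPKM.

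Pink1 was at 232, 214 and 240 per 1000 FPKM of muscle marker in MyoCre and at 128, 162 and 202 in K15SKO, so the groups no longer overlapped. Atg9a was at 30.0, 28.1 and 28.3 against 19.1, 22.0 and 23.3, and Ulk2 at 15.4, 17.5 and 16.3 against 10.1, 12.9 and 13.5. Rb1cc1 was at 8.07, 9.60 and 8.36 against 7.13, 7.20 and 7.20. For these 5 genes every knockout library was below every control. Over all 38, that held for 7, the others being Pik3c3 and Atg16l1, against 9.55% of all genes on the same scale, and every knockout library was above every control for 1, Wipi1, against 7.00%. Bnip3, Gabarap, Gabarapl1, Gabarapl2, Map1lc3a, Sqstm1 and Nbr1 overlapped between the groups on this scale. So did Atg12, Atg13, Atg4c, Fundc1 and Bnip3l, which, like Gabarap, Map1lc3a and Nbr1, had not overlapped in FPKM. The part of the adipocyte, slow fibre, macrophage, regeneration, liver and erythroid transcripts in any of these differences was not tested.

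**Figure D5:**
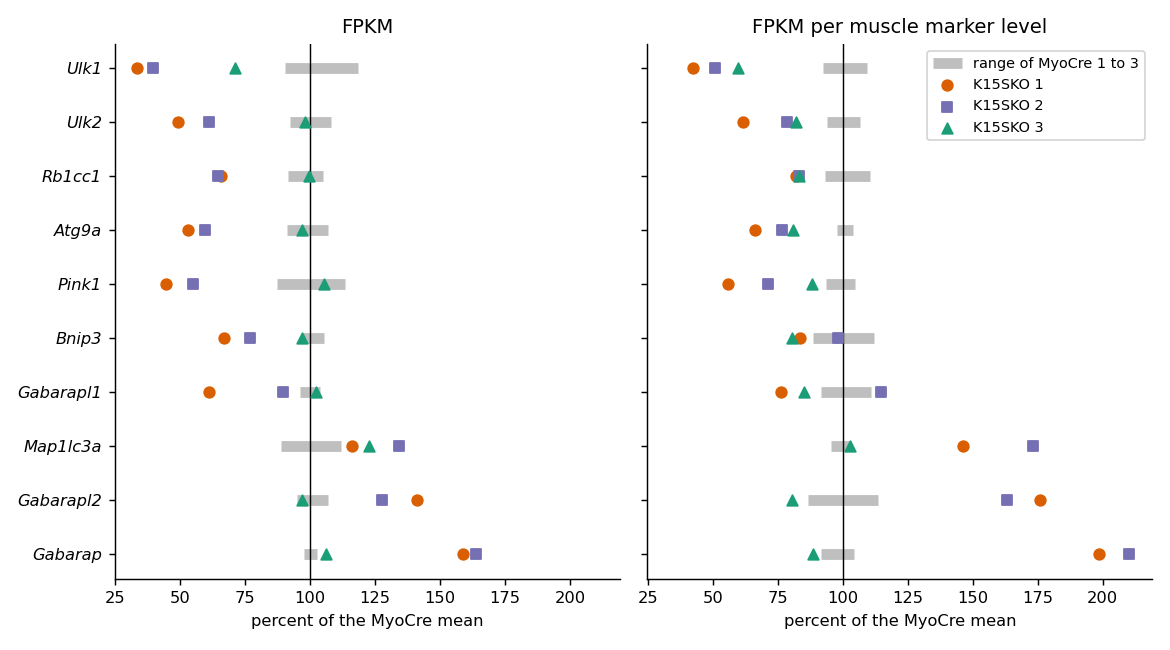
Level of 10 autophagy genes in each K15SKO library as a percent of the MyoCre mean, in FPKM (left) and per muscle marker level (right), with the range of the MyoCre libraries in grey. On the right Ulk1, Ulk2, Rb1cc1, Atg9a and Pink1 lie below the grey range in all 3 K15SKO libraries, and Gabarap lies above it in K15SKO 1 and 2 only.

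A list of 77 other genes of the pathway gave 76 above the FPKM minimum, and limma called 0 of them (49 below 0, 27 above, median −0.11). At an unadjusted p under 0.05, 8 (10.5%) were lower and 3 (3.95%) higher, against 8.12% and 8.43% of all genes. Without K15SKO 3, 17 (22.4%) were called lower and 2 (2.63%) higher, against 12.8% and 10.8% of all genes. Genes of upstream control, 23 of the 76, made up 7 of the 17. Prkaa2, the catalytic AMPK subunit that phosphorylates ULK1, stood at 61.4, 76.6 and 71.5 FPKM in the MyoCre libraries and at 37.0, 44.5 and 57.7 FPKM in the K15SKO libraries. The groups did not overlap (log2 difference −0.60, SE 0.18, adjusted p = 0.272, and 0.0215 without K15SKO 3). Foxo1, a transcription factor that induces autophagy genes in muscle, stood at 4.22, 3.68 and 5.88 FPKM against 1.92, 2.00 and 3.50 FPKM. It too was lower in all knockout libraries (log2 difference −0.70, adjusted p = 0.273, and 0.0274 without K15SKO 3), as was Bcl2, the inhibitor of Becn1, at under 3 FPKM throughout (log2 difference −0.69, adjusted p = 0.269, and 0.0445 without K15SKO 3).

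Phb2, an inner membrane receptor of mitophagy, was higher in every knockout library. It stood at 79.3, 68.6 and 78.1 FPKM in the MyoCre libraries and at 102, 105 and 98.7 FPKM in the K15SKO libraries, with K15SKO 3 close to the other pair (log2 difference 0.43, SE 0.11, adjusted p = 0.269, and 0.0292 without K15SKO 3). Rhot1 (Miro1), which links mitochondria to motors and is cleared by Parkin, was lower without overlap (log2 difference −0.27, adjusted p = 0.288), and the mitochondrial ligase Mul1 overlapped (−0.20, adjusted p = 0.378). Without K15SKO 3 their adjusted p was 0.0391 and 0.0404. Among genes for fusion with lysosomes, the SNARE Vamp8 stood at 23.8, 24.8 and 27.3 FPKM against 30.9, 33.5 and 32.7 FPKM. All knockout values were higher (log2 difference 0.35, adjusted p = 0.272), whereas the fusion adaptor Plekhm1 was lower without overlap (−0.27, adjusted p = 0.283, and 0.0458 without K15SKO 3) and the SNARE Snap29 lower with overlap (−0.27, adjusted p = 0.318).

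The largest difference outside the 38 genes among cargo receptors was that of Retreg1 (FAM134B), the receptor for the endoplasmic reticulum. It stood at 125, 177 and 113 FPKM in the MyoCre libraries and at 45.7, 43.3 and 131 FPKM in the K15SKO libraries. K15SKO 3 was inside the controls and the other pair far below (log2 difference −1.08, adjusted p = 0.301, and 0.0116 without K15SKO 3). Stbd1, the glycogen receptor, had the reverse order, at 26.3, 24.6 and 28.2 FPKM against 49.95, 44.4 and 27.3 FPKM. K15SKO 1 and 2 were above and K15SKO 3 among the controls (log2 difference 0.56, adjusted p = 0.297, and 0.0113 without K15SKO 3). The aggregate receptor adaptor Wdfy3 and the tether Epg5 were lower without overlap (−0.27 and −0.44, adjusted p = 0.309 and 0.279, and for Epg5 0.0349 without K15SKO 3), and Zfyve1, a marker of the omegasome, and the curvature protein Sh3glb1 overlapped (−0.28 and 0.25, adjusted p = 0.359 for each).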

How the data were processed

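Total RNA from quadriceps of 6 mouse samples, 3 MyoCre and 3 K15SKO, was sequenced. The authors deposited FPKM for 23314 genes; STAR, Cufflinks, Cuffdiff and mm10 are named per the submitters' processing notes, with versions and strandedness not given in the sources used here. FPKM keeps no counts, so absolute depth is unknown; reads of overlapping or near-identical genes may have been split.

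The test was limma 3.58.1 (R 4.3.3; lmFit, eBayes with trend, two-sided) on log2(FPKM + 1) for genes averaging 1 FPKM or more, with Benjamini-Hochberg adjustment over 11607 genes at 0.05. Differences on this scale understate changes of low genes. Scripts were tested on simulated data. Relative depth came from steps between values under 0.1 FPKM. Gene positions came from GENCODE M21 (GRCm38, the mm10 assembly), which matched all 38 genes, and promoters from RefSeq. Shared 50-base stretches were counted over GENCODE transcripts. Tables and plots used Python 3.11.15, pandas 2.3.3 and matplotlib 3.10.9.

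The genes and lists were chosen with earlier results of these data known. By the rule for named genes, values in every library are given for genes whose groups did not overlap and for the ATG8 genes. The rule also takes the smallest p of each role group and up to 3 genes per pathway list. Those of Ulk2, Rb1cc1, Atg14, Bnip3, Pink1, Sqstm1, Foxo3 and Depp1 were added after their values were seen. Alternatives were a pseudocount of 0.1 FPKM, no filter, quantile or median-of-ratios scaling, no trend in eBayes, a replicate block and each library left out.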

Additional observations from a re-analysis of the deposited data

How the results depend on the processing

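No autophagy gene was called under any alternative that kept all 6 libraries. Under these the median difference of the 38 genes stayed between −0.15 and −0.10 (−0.14 without Atg4a-ps, an alternative chosen after seeing the data). With 1 library left out, the median ran from −0.20 to −0.08. Over all genes, limma called 6 with all libraries, 3 with no filter on low values and 3 with the replicate block, under which 0 autophagy genes were called. Same-numbered libraries correlated at 0.0024, 0.085 and 0.094 in their deviations, none over 0.1, so the numbers were not taken as pairs; MyoCre 1 correlated best with K15SKO 2. Leaving out 1 library gave 3 to 2743 called genes, 0 to 11 autophagy genes, 0 to 19 pathway genes and 11 to 26 autophagy genes with no overlap. Each maximum came without K15SKO 3. Without MyoCre 1 or 2 the called genes numbered 3, and without MyoCre 1 the genes with no overlap 17. The count with no overlap cannot fall when a library is left out, and its share over all genes was not counted there. Its rise therefore describes no trait of these genes. The 21 single genes newly past the threshold all came without K15SKO 3. Small differences changed sign: Atg16l2 to −0.030 with quantile scaling, Atg2a to 0.0058 and Atg4b to 0.010 with median-of-ratios scaling. Leaving out 1 library gave ranges across 0 for Atg16l2 (−0.10 to 0.17), Atg2a (−0.13 to 0.051), Atg3 (−0.080 to 0.0030), Atg4a (−0.020 to 0.10), Atg4b (−0.10 to 0.043), Atg4d (−0.026 to 0.11), Atg5 (−0.18 to 0.046), Atg7 (−0.0073 to 0.17), Becn1 (−0.27 to 0.077), Optn (−0.41 to 0.10), Pik3r4 (−0.15 to 0.012) and Wipi1 (−0.0039 to 0.30); the cause was not tested. Depth is unknown in reads, which limits genes near 1 FPKM most.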

Other observations

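Among the genes of upstream control, Depp1, which FOXO factors induce and which has been tied to autophagy, was the only one with every K15SKO library above every MyoCre library. It stood at 3.53, 4.34 and 2.83 FPKM in the MyoCre libraries and at 4.62, 5.78 and 15.1 FPKM in the K15SKO libraries, so K15SKO 3 was by far the highest, unlike Foxo1 itself, which was lower in all 3 knockout libraries. The log2 difference of 0.91 (SE 0.39) did not pass the threshold (limma adjusted p = 0.309). Foxo3 stood at 7.44, 6.22 and 7.40 FPKM against 4.16, 4.55 and 6.63 FPKM, and K15SKO 3 overlapped the controls (log2 difference −0.41, adjusted p = 0.301, and 0.0236 without K15SKO 3). Depp1 was named after its values were seen.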
